A study of Mus musculus with 4 samples.

Results

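Genes of the interferon response and of antigen presentation were followed in hair follicle stem cells (HFSCs, the cells that renew the hair follicle in each cycle) lacking the microRNA miR-205. The set named 43 genes: interferon receptors and their kinases, the transcription factors they activate, RNA sensors, interferon-induced antiviral and GTPase genes, and genes that load and display antigen. For each gene the probe set of highest mean over the 4 arrays was used, among probe sets whose annotation gives that symbol alone. In this way 41 of the 43 were measured, out of 18194 genes on the array. The probe set of Isg15 is shared with another gene and Ifi44 is named by none of the annotated probe sets used here, so neither has a value.

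The study compared 2 arrays of miR-205 knockout (KO) HFSCs with 2 arrays of wild-type (WT) HFSCs. The labels give all 4 samples a C57BL/6 background, skin as the tissue and an age of postnatal day 4, and say that sorted cells went into Trizol. Titles number the arrays 1 and 2 within each group as biological replicates, without saying whether each number is an animal or a pool. The p-values below set the difference between groups against the spread between these samples. The labels name neither the part of miR-205 deleted nor any Cre driver, and their treatment text describes other mice, which carry K14-H2BGFP with TRE-miR-203, with or without K14-rtTA, and received doxycycline. That text was not used to form the groups.

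Interferons are secreted proteins by which a cell that has sensed a virus alarms its neighbours. Type I interferons bind the IFNAR1 and IFNAR2 chains and interferon gamma binds IFNGR1 and IFNGR2. JAK kinases on these receptors then activate STAT proteins, and STAT2 together with IRF9 reaches a DNA element called the ISRE, which turns on antiviral genes such as the Ifit, Mx and Oas families. Interferon gamma acts on a second kind of element, the GAS, and is the main inducer of guanylate-binding proteins and of the genes that load peptides on MHC molecules. In skin these genes serve keratinocyte defence, while the growing hair follicle is known as a site of low MHC class I display.

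The microRNA removed in KO cells is printed here because it defines the comparison. Its 2 mature arms come from a gene on chromosome 1 (RefSeq, GRCm38.p6), and capitals mark the seed, bases 2 to 8:
mmu-miR-205-5p: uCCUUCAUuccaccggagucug
mmu-miR-205-3p: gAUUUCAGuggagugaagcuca

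The promoters are shown for the elements through which interferon is known to act. RefSeq (GRCm38.p6) gave a promoter, from 250 bases before to 50 bases after a transcript start, for 33 of the 43 genes. An ISRE core, spelled GAAA, NN and GAAA in a row and searched on both strands with overlapping matches allowed, was present in 15 of the 33 (45.5%), against 3.99% of the 27025 genes with a promoter and 3.44% of the 32851 promoters. A GAS core spelled TTCNNNGAA, which reads the same on both strands, was present in 8 of the 33 (24.2%), against 9.55% of genes and 8.30% of promoters. A match is a description of letters, not of binding. Windows of up to 30 bases follow for genes with bright, intermediate and dim probe sets, on the strand that reads GAAA, with the match in capitals:
B2m, chr2:122147538-122147567, plus strand: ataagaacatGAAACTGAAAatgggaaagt
Cxcl10, chr5:92349083-92349112, minus strand: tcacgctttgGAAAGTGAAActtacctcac
Igtp, chr11:58199512-58199541, plus strand: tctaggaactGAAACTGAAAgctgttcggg
Ddx58, chr4:40239804-40239833, plus strand: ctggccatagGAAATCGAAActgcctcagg
Rsad2, chr12:26456553-26456582, plus strand: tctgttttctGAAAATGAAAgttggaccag
Ifit1, chr19:34640794-34640823, minus strand: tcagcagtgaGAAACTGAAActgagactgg
Ifit3, chr19:34583397-34583426, minus strand: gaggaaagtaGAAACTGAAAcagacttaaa
Gbp2, chr3:142620594-142620623, minus strand: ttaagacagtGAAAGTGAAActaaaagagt
The GAS match of Irf1, the gamma-induced factor, is shown for contrast:
Irf1, chr11:53769914-53769942, plus strand: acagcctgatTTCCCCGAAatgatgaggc

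Mature miR-205 itself was not measured here. The probe set of Mir205hg, the gene annotated as its host, was at 6.52 and 6.13 in KO against 5.81 and 5.30 in WT; where its probes lie relative to the deleted part is not given in the labels, so it does not check the genotype. The arrays carried transcripts listed as HFSC markers. All 17 HFSC markers had a mean above the median gene of 6.88 on the log2 scale, among them Sox9 (10.38 and 9.94 in KO, 10.22 and 10.14 in WT) and Krt15 (13.83 and 14.05 in KO, 13.62 and 13.78 in WT). Cd34 was the least even, at 6.87 and 6.69 in KO against 8.32 and 6.20 in WT. Only WT 1 was above the median gene in Cd34. Of 21 leukocyte markers measured, 7 were above the olfactory receptor limit described below and 1 above the median gene; leukocytes carry interferon-induced and MHC class II transcripts. Laptm5, a lysosomal protein of blood cells, was the brightest, at 6.72 and 7.22 in KO against 6.72 and 7.08 in WT. Cd4, Cd8a, Csf1r, Cd3e, Cd68 and Lyz2 had means between 5.86 and 6.64. Ptprc, the pan-leukocyte surface protein, lay between 3.51 and 3.55 on all 4 arrays, Itgam between 3.22 and 3.34, and Cd207, the Langerhans cell lectin, at 4.92. Of 10 Langerhans and dendritic cell markers 2 were above the limit, Flt3 and Batf3. The summed linear signal of the leukocyte markers was 829 and 942 in KO against 790 and 966 in WT. Dermal fibroblast genes were bright and uneven: 13 of 14 were above the median gene, and their summed linear signal was 32924 and 17590 in KO against 55848 and 14055 in WT. KO and WT arrays also differed in sex-linked RNA. Xist was at 5.26 and 5.45 in KO against 13.28 and 13.19 in WT, and the Y-linked gene Eif2s3y at 9.59 and 9.57 in KO against 3.05 and 2.86 in WT, so genotype and the sex of the source cannot be told apart here. None of the genes of the set lies on X or Y.

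The chosen probe sets were bright for the machinery that receives an interferon signal and for the class I genes B2m, Tap1 and Tapbp. Genes that the signal induces were mixed, with dim probe sets for part of the antiviral effectors and bright ones for Irf1 and Cxcl10. The part of RNA from other cells, such as the dermal fibroblast genes given above, in these values was not tested. The deposited values carry no detection calls. Olfactory receptor genes, which skin is taken not to use, served as a guide: the 95th percentile of the 39 Olfr genes was 5.63, and a gene at or under it was treated as dim. Of the 41 genes, 28 lay above this limit and 13 at or under it, and 16 lay above the median gene. Over all genes 65.0% lay above the limit, against 68.3% of the set. Brightness depends on the probes as well as on the RNA, so these bands do not rank transcripts against each other, and in a sorted population fewer cells with a transcript and less of it per cell cannot be told apart. By role, all 6 receptors and kinases were above the median gene, as were 3 of 6 transcription factors, 1 of 3 sensors, 1 of 14 antiviral effectors, 2 of 5 gamma-induced genes and 3 of 7 antigen presentation genes. Of the 14 antiviral effectors, 7 were dim. Of the measured genes with an ISRE match 6 of 14 were dim, against 2 of 17 with a promoter but no match. Of the 8 with a GAS match none was dim, against 8 of 23 with a promoter but no GAS match. These counts are small, and a link between match and brightness was not tested. Genes just above the limit were Rsad2 at a mean of 5.83, Cd74 at 5.84 and Mx2 at 5.88, and just under it were Usp18 at 5.24, Stat2 at 5.24 and Nlrc5 at 5.19.

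**Figure D1:**
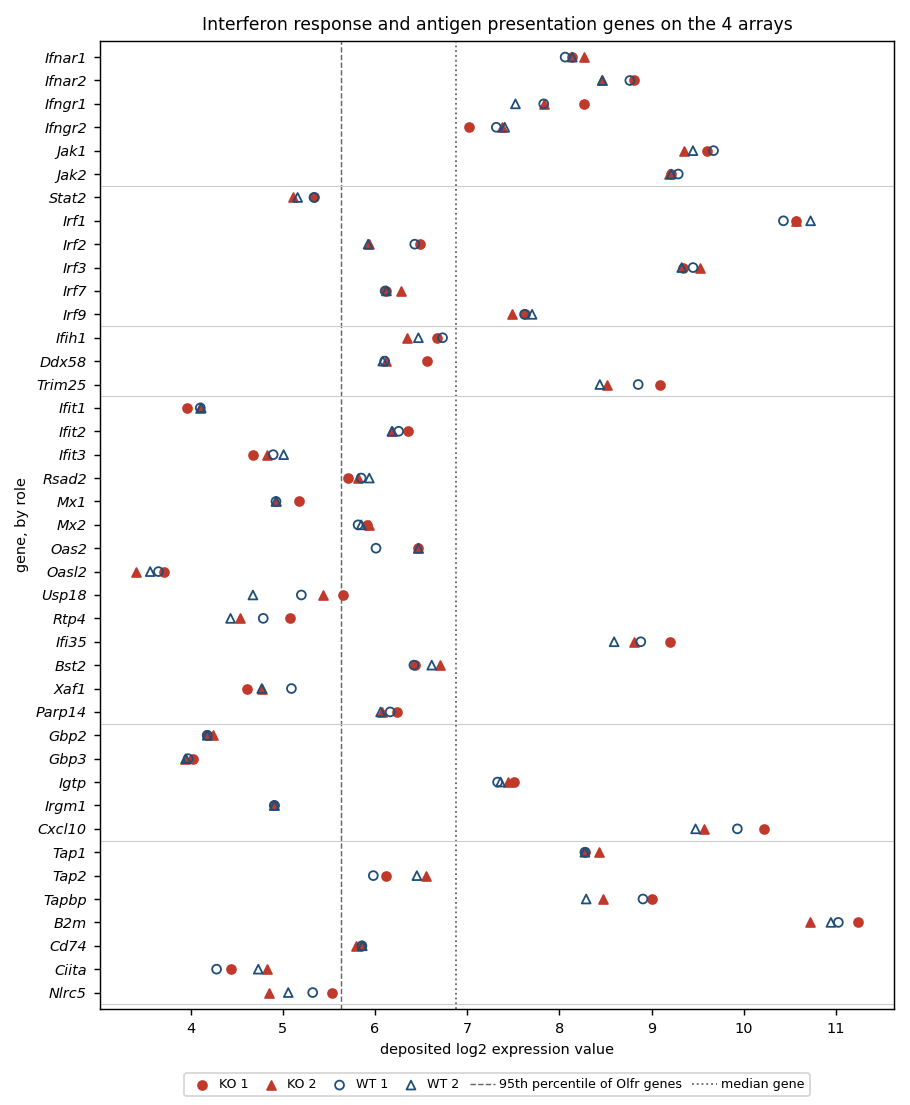
Deposited log2 expression value of each of the 41 measured genes, 1 row per gene ordered by role, with the KO arrays as filled red symbols and the WT arrays as open blue symbols (circles for number 1, triangles for number 2). The dashed line is the 95th percentile of olfactory receptor genes at 5.63 and the dotted line the median gene at 6.88; receptors and kinases lie to the right of both, while 7 of 14 antiviral effectors lie to the left of the dashed line on average.

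None of the 41 genes was called different between KO and WT cells at an adjusted p of 0.05. Values were close in most genes: the difference, KO minus WT on the log2 scale, ran from -0.24 for Xaf1 to 0.61 for Usp18, with a median of 0.045 against 0.0081 over all genes. It was positive in 25 genes (61.0%, against 53.2% of all genes) and negative in 16. This tilt rested on single arrays: 17 genes were positive without KO 1 (41.5%, against 56.0% of all genes) and 19 without WT 2 (46.3%, against 55.5%), and the mean of all probe sets of a gene gave 21 (51.2%, against 53.0%). The median difference was -0.018 without KO 1 and -0.0040 without WT 2. With limma across all genes none of the 41 passed an adjusted p of 0.05, against 0.0110% of all genes. The 2 genes behind that share were the sex-linked Xist and Eif2s3y (limma adjusted p = 0.038 for each). None of the 41 had an unadjusted p under 0.05, against 1.88% of all genes (1.15% higher and 0.726% lower in KO). KO and WT arrays did not overlap in 7 of the 41 (17.1%), against 13.9% of all genes. KO was above in 4 of them (8.20% of all genes) and below in 3 (5.70% of all genes). These shares are near the background and are no result about the set. Every adjusted p of the 41 genes was 1, so it is not repeated below. The moderated standard error (SE) of a difference ran from 0.038 to 0.33 with a median of 0.14. Differences of modest size would therefore not be seen. An exact permutation test of 2 arrays against 2 could not go below p = 0.33 for a difference of any size.

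**Figure D2:**
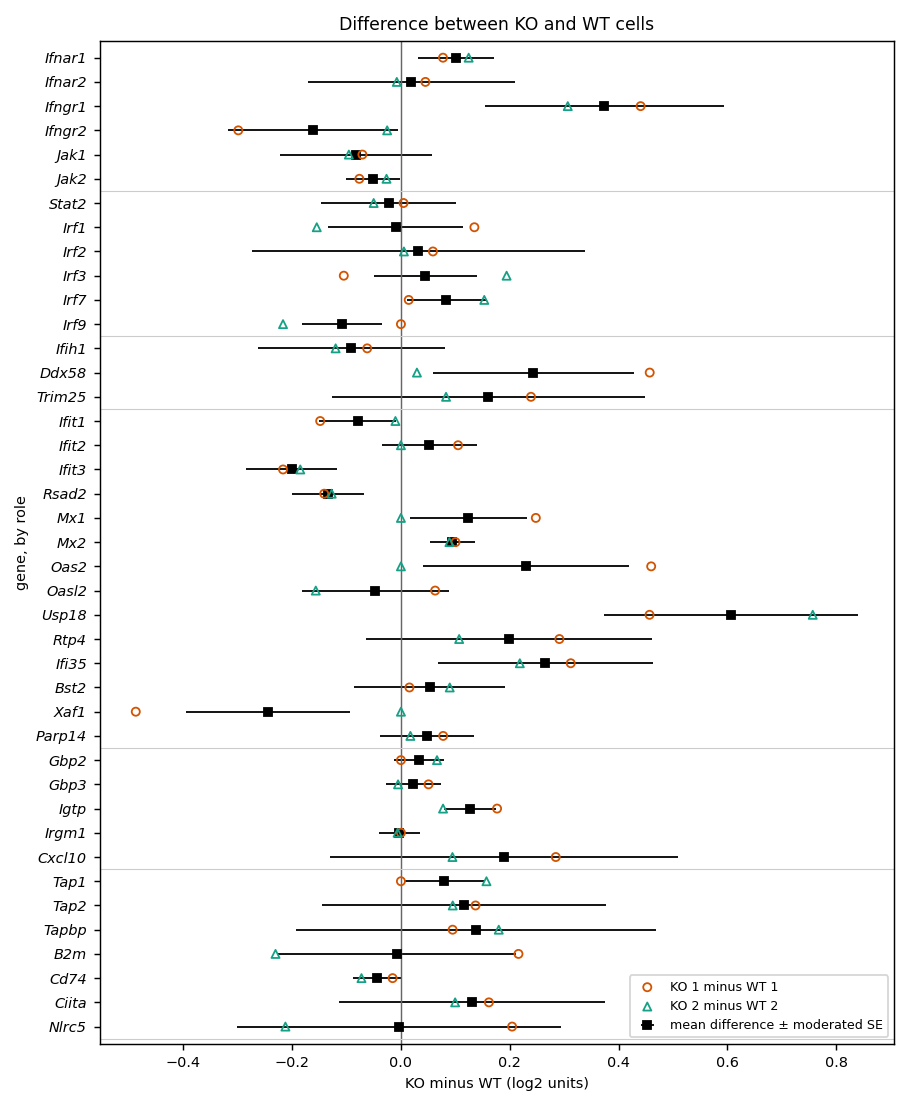
KO minus WT in log2 units for each of the 41 genes, ordered by role; black squares with bars are the mean difference and its moderated SE, orange circles KO 1 minus WT 1 and green triangles KO 2 minus WT 2. Usp18 lies farthest right at 0.61, and the mean differences of the other genes lie between -0.24 and 0.37.

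Receptors and kinases were bright, and Ifngr1 had the largest difference among them. Ifnar1, a chain of the type I interferon receptor, was at 8.14 and 8.26 in KO against 8.06 and 8.14 in WT. Its partner Ifnar2 was at 8.81 and 8.46 in KO against 8.76 and 8.46 in WT. In both genes the groups met or overlapped. Ifngr1, the ligand-binding chain of the gamma receptor, was at 8.27 and 7.83 in KO against 7.83 and 7.52 in WT, with KO 1 the highest array and KO 2 equal to WT 1. Its difference was 0.37 (SE 0.22, limma unadjusted p = 0.19), and it was 0.44 between the arrays numbered 1 and 0.31 between those numbered 2. Leaving out single arrays gave 0.15 (without KO 1) to 0.59 (without KO 2). The accessory chain Ifngr2 went the other way, at 7.02 and 7.38 in KO against 7.32 and 7.41 in WT, a difference of -0.16 (SE 0.16). The kinases Jak1 and Jak2, which phosphorylate the receptors and the STAT proteins, differed by -0.08 (SE 0.14) and -0.05 (SE 0.05).

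The transcription factors of the pathway were split in brightness, and in each of them the KO and WT arrays overlapped or met. Irf1, an early interferon-induced activator, was at 10.56 and 10.57 in KO against 10.43 and 10.72 in WT. The KO arrays lay between the WT arrays, and the difference was -0.0098 (SE 0.12). Irf3, the factor that sensors activate to start interferon synthesis, was at 9.34 and 9.52 in KO against 9.45 and 9.33 in WT. Irf9, the DNA-binding partner of STAT2, was at 7.62 and 7.49 in KO against 7.62 and 7.70 in WT, with KO 2 the lowest array. Stat2 itself was dim, at 5.34 and 5.11 in KO against 5.34 and 5.16 in WT. Irf7, which amplifies type I interferon, lay between 6.11 and 6.28, and Irf2, an antagonist of IRF1, between 5.92 and 6.49. Differences of the 6 factors ran from -0.11 to 0.08.

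Of the RNA sensors, Ddx58 (RIG-I, which detects viral RNA ends) had the KO arrays above the WT arrays. It was at 6.56 and 6.11 in KO against 6.10 and 6.08 in WT. KO 1 stood above the other arrays, which lay within 0.03 of each other. The difference was 0.24 (SE 0.18, limma unadjusted p = 0.28), and it was 0.46 between the arrays numbered 1 and 0.03 between those numbered 2. Without KO 1 it was 0.02. Ifih1 (MDA5, the sensor of long double-stranded RNA) was at 6.67 and 6.35 in KO against 6.73 and 6.47 in WT, a difference of -0.09 (SE 0.17). Trim25, a ubiquitin ligase of the RIG-I pathway, was at 9.09 and 8.52 in KO against 8.85 and 8.44 in WT. Both arrays numbered 1 were above both numbered 2 in Ifih1 and Trim25, and the groups overlapped.

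Among the antiviral effectors, Usp18 had the widest difference in deposited values and was the 1 gene of the set past 1.5-fold on that scale, against 0.627% of all genes. Its probe set is dim: KO 2 and both WT arrays lay under the olfactory receptor limit, so the size of the difference in RNA is not known. Usp18 encodes the protease that removes ISG15 from proteins and restrains signalling at the type I receptor. It was at 5.66 and 5.43 in KO against 5.20 and 4.67 in WT, and the groups did not overlap. The difference was 0.61 (SE 0.23, limma unadjusted p = 0.079). It was 0.46 between the arrays numbered 1 and 0.76 between those numbered 2, and without WT 2, the lowest array, it was 0.34.

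The other effectors with separated groups differed by less. Ifit3, of the family that binds viral RNA, was at 4.68 and 4.82 in KO against 4.89 and 5.01 in WT, a difference of -0.20 (SE 0.08, limma unadjusted p = 0.093), and is dim. Rsad2 (viperin, which makes a nucleotide that stops viral polymerases) was at 5.71 and 5.81 in KO against 5.85 and 5.94 in WT, a difference of -0.13 (SE 0.07). Mx2, of the dynamin-like antiviral GTPases, was at 5.92 and 5.94 in KO against 5.82 and 5.85 in WT, a difference of 0.09 (SE 0.04). KO was lower in Ifit3 and Rsad2 and higher in Mx2 on the chosen probe sets. The further probe sets of Rsad2, both dim, differed by -0.04 and 0.20, so no direction is read from these genes.

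In the remaining effectors the groups overlapped or met. Ifi35, an interferon-induced leucine zipper protein and the 1 effector above the median gene, was at 9.19 and 8.81 in KO against 8.88 and 8.59 in WT, a difference of 0.27 (SE 0.20), and 0.07 to 0.46 without single arrays. Oas2, which makes the signal that activates RNase L, was at 6.47 on both KO arrays and on WT 2, and at 6.01 on WT 1. Mx1 was listed at 4.92 on KO 2 and both WT arrays and at 5.17 on KO 1. Both differences thus rest on 1 array. Xaf1, a pro-apoptotic factor, was at 4.61 and 4.77 in KO against 5.09 and 4.77 in WT, where WT 1 stood above the rest. Bst2 (tetherin, which holds budding virions on the membrane) was at 6.44 and 6.70 in KO against 6.42 and 6.61 in WT. Ifit1, Ifit2, Oasl2, Rtp4 and the ADP-ribosyltransferase gene Parp14 had differences from -0.08 to 0.20, with Ifit1, Oasl2 and Rtp4 dim.

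Of the genes that interferon gamma induces, Cxcl10, the chemokine that draws activated T cells, was bright. It was at 10.21 and 9.57 in KO against 9.93 and 9.48 in WT, so the number of the array separated the values and the genotype did not. The difference was 0.19 (SE 0.32). Igtp, an immunity-related GTPase, was at 7.51 and 7.44 in KO against 7.33 and 7.36 in WT. Its groups did not overlap, and its difference of 0.13 (SE 0.05) had the smallest unadjusted p of the set (limma, 0.076), with 0.18 between the arrays numbered 1 and 0.08 between those numbered 2. The related GTPase genes Irgm1, Gbp2 and Gbp3 were dim, with differences of -0.0030, 0.03 and 0.02.

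Of the antigen presentation genes, B2m, Tap1 and Tapbp were above the median gene on their chosen probe sets. The further probe sets of Tap1 were all dim, at means of 5.08, 3.53 and 3.09. That of Tapbp was under the median gene, at 6.41. B2m, the light chain of every MHC class I molecule, was at 11.24 and 10.71 in KO against 11.03 and 10.94 in WT, a difference of -0.0072 (SE 0.22), with the WT arrays between the KO arrays. Tap1 and Tap2 encode the transporter that carries peptides to class I molecules and Tapbp the tapasin that bridges them, and all of these lie on chromosome 17 (RefSeq, GRCm38.p6). Tap1 was at 8.28 and 8.43 in KO against 8.28 on both WT arrays. Tap2 was at 6.12 and 6.55 in KO against 5.98 and 6.45 in WT. Tapbp was at 9.00 and 8.47 in KO against 8.91 and 8.29 in WT. In Tap2 the arrays numbered 2 were the higher ones and in Tapbp those numbered 1. Nlrc5, the transactivator of class I genes, was dim, at 5.53 and 4.85 in KO against 5.32 and 5.06 in WT. On the class II side Ciita, the master regulator of class II genes, was dim, at 4.44 and 4.83 in KO against 4.28 and 4.73 in WT. Cd74, the invariant chain that guards the class II groove, was just above the limit, at 5.84 and 5.79 in KO against 5.86 on both WT arrays. Its groups did not overlap, and the difference was -0.04 (SE 0.04).

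The wider pathway was read from 6 further lists with 120 measured genes. None passed an adjusted p of 0.05 with limma, and 2 had an unadjusted p under 0.05, both higher in KO: Oas1c and Psmb8. Over all genes 1.88% had such a p (1.15% higher and 0.726% lower in KO), so this count is near the background. Among 48 other interferon-induced effectors, 29 were above the olfactory receptor limit (60.4%, against 65.0% of all genes) and 16 above the median gene. Of the 48, 30 had a higher mean in KO (62.5%, against 53.2% of all genes) and the median difference was 0.035. That median was 0 within the arrays numbered 1 and 0 within those numbered 2. It was also 0 without KO 1, and 0.015 with median centring, so no direction is read from this list. Oas1c, of the oligoadenylate synthetase family, was dim at 5.05 and 5.08 in KO against 4.59 and 4.37 in WT, a difference of 0.59 (SE 0.10, limma unadjusted p = 0.0091, adjusted p = 1). The chemokine genes Cxcl9 (0.40, SE 0.14) and Ccl5 (0.12, SE 0.04) and the gene Oas3 (0.06, SE 0.04) were also dim. Bright ones included Ifitm3, which blocks viral entry, at 11.05 and 10.63 in KO against 10.96 and 10.46 in WT. Ifitm2 differed by -0.11 (SE 0.13) and the lysosomal reductase gene Ifi30 by 0.03 (SE 0.04).

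Interferon genes themselves were dim, with 8 of 10 measured at or under the olfactory receptor limit, and their median level was 4.77 and 4.58 in KO against 4.62 and 4.65 in WT. Ifna9 was the brightest, at 6.42 on both KO arrays and on WT 2 and at 6.29 on WT 1. The largest difference by p was that of Ifna11 (0.16, SE 0.07), a dim probe set. Sensors and adaptors beyond the set had 9 of 11 genes above the limit and a median difference of 0.023. Tbk1, the kinase that activates IRF3, was listed at 9.48 on all 4 arrays. Ticam1, the adaptor of TLR3, was at 6.32 and 6.41 in KO against 6.53 on both WT arrays, a difference of -0.17 (SE 0.05, limma unadjusted p = 0.050). Mavs, the mitochondrial adaptor of RIG-I, differed by 0.12 (SE 0.07). Among 17 other receptors, kinases, factors and brakes the median was 0.020. Socs3, an inhibitor of JAK signalling, was bright at 11.52 and 10.98 in KO against 11.27 and 10.90 in WT, and Il10rb differed by 0.11 (SE 0.04), Il10ra by 0.18 (SE 0.07), Stat3 by -0.17 (SE 0.10) and Irf8 by -0.25 (SE 0.17).

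Of 17 other class I pathway genes, 8 were above the median gene and 13 above the olfactory receptor limit. Of 17 other class II pathway genes these counts were 8 and 11. The brightest genes of the class I list were Calr, Canx and Pdia3, at means of 12.21, 12.16 and 11.45, which also act elsewhere. The classical heavy chain genes H2-D1 and H2-K1 were at 11.11 and 11.07 in KO against 10.93 and 11.07 in WT, and at 10.69 and 10.53 in KO against 10.39 and 10.53 in WT. Genes of the H2 family are close copies, so their probes may share signal. Psmb8, a catalytic subunit of the immunoproteasome, was at 6.79 and 6.80 in KO against 6.52 and 6.65 in WT, a difference of 0.21 (SE 0.06, limma unadjusted p = 0.048, adjusted p = 1). The class I list had a median difference of 0.030, with 13 of 17 higher in KO (76.5%, against the same 53.2%). On the class II list, the alpha chain gene H2-Aa was dim and listed at 4.99 on all 4 arrays, and H2-Eb1 lay between 5.87 and 5.90. The class II genes above the median gene were the lysosomal protease Lgmn and DNA-binding factors such as Rfx5, Creb1, Nfyb and Nfyc, most of which also act elsewhere. The list's median was -0.016. The part of leukocyte or dendritic cell RNA, whose markers are given above, in the class II values was not tested.

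**Figure D3:**
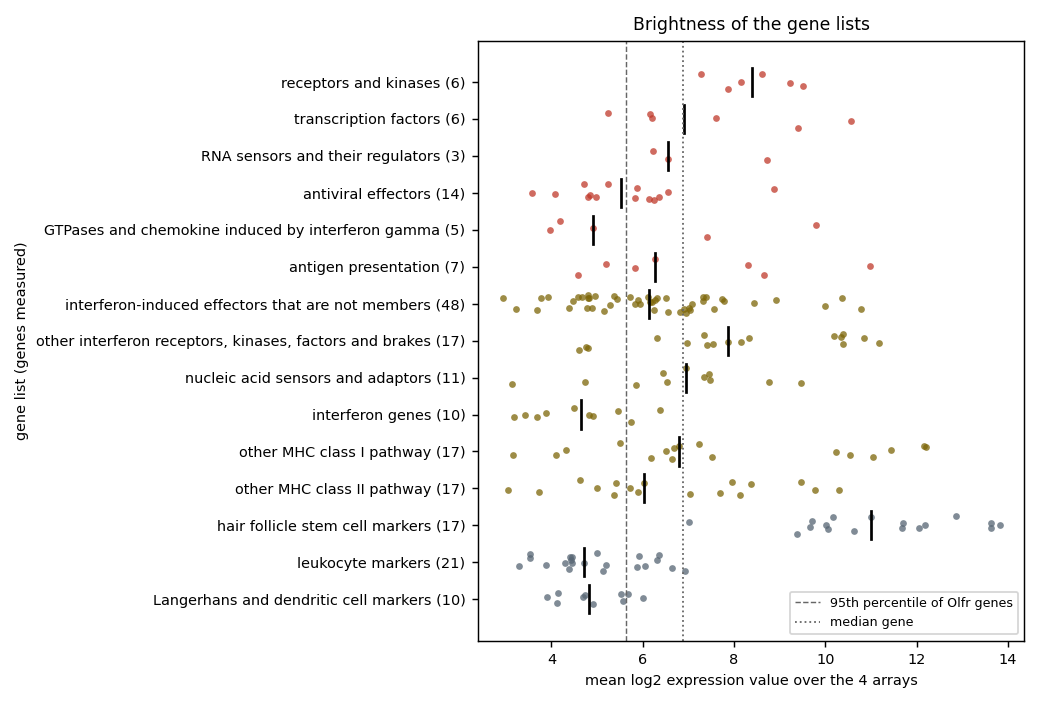
Mean log2 expression value over the 4 arrays of each gene, grouped by role in the set (red), by further pathway list (ochre) and by cell type markers (grey); the vertical bar is the median of a list, the dashed line the 95th percentile of olfactory receptor genes (5.63) and the dotted line the median gene (6.88), and points are spread vertically for legibility. Interferon genes, leukocyte and Langerhans cell markers lie mostly left of the dashed line, with 2 of 10, 7 of 21 and 2 of 10 genes above it, while all 17 HFSC markers lie right of the dotted line.

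Array number separated more of these genes than genotype did. The difference between numbers was larger than that between groups in 21 of the 41 genes (51.2%, against 54.3% of all genes). By this count the set is near the background. The size of the number 1 minus number 2 difference had a median of 0.20 over the 41 genes, against 0.09 for KO minus WT. Over all genes these medians were 0.11 and 0.07. Both arrays numbered 1 were above both numbered 2 in 16 of the 41 genes (39.0%, against 22.0% of all genes and 31.3% of genes above the olfactory receptor limit), and the reverse held in 5 (12.2%, against 21.7%). Number 1 was higher by 0.57 in Tapbp, 0.55 in Cxcl10, 0.53 in Irf2, 0.49 in Trim25 and 0.30 in B2m. Number 2 was higher in Tap2, by 0.45, and in Ciita, by 0.42. The labels do not say what the numbers share. The control probe set for the 5′ part of 18S ribosomal RNA read 11.51 (KO) and 11.59 (WT) in the arrays numbered 1, and 9.46 (KO) and 9.40 (WT) in those numbered 2. Likewise, 13 of 14 dermal fibroblast markers were higher on both arrays numbered 1. The part of either in the values of these genes was not tested.

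**Figure D4:**
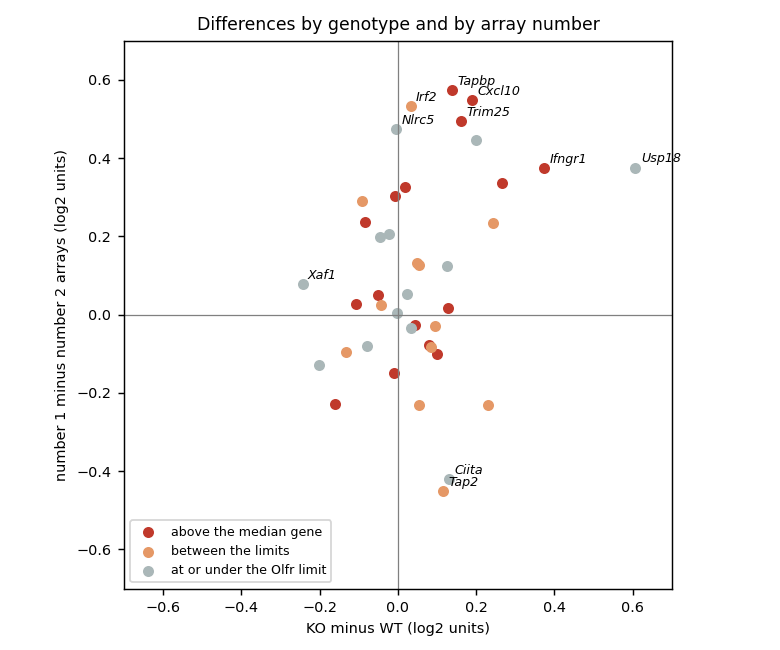
For each of the 41 genes, KO minus WT (horizontal axis, log2 units) against the mean of the number 1 arrays minus the mean of the number 2 arrays (vertical axis, log2 units), with colour for the brightness band. Points spread more along the vertical axis, up to 0.57 for Tapbp, than along the horizontal axis, where Usp18 at 0.61 stands apart.

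Other probe sets of the same genes limit what the chosen ones show. Of the 41 genes, 19 had more than 1 probe set, with 30 further probe sets in all. Of these 14 had the same sign of KO minus WT as the chosen one, and 8 of the 14 above the olfactory receptor limit did. The second B2m probe set was at 11.07 and 10.87 in KO against 10.97 and 10.96 in WT, close to the first. Those of Ifi35 differed by 0.10 and 0.14, and the second bright one of Trim25 by 0.20, in the direction of the chosen probe sets. The further probe sets of Jak1 differed by 0.10 and -0.29 and that of Tapbp by -0.09. Those of Ddx58, both dim, differed by 0.42 and 0.05, and that of Ifnar1, also dim, by 0.43. Usp18, Ifngr1, Igtp, Ifit3 and Mx2 have no second probe set. In 13 of the 41 genes at least 2 arrays had exactly the same deposited value, against 43.0% of all genes, and Mx1, Oas2, Gbp2, Irgm1 and Tap1 had only 2 distinct values each.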

How the data were processed

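RNA was measured on 4 Affymetrix mouse arrays, 2 of KO and 2 of WT cells. The deposited values are log2 expression values per probe set, made with RMA (version not stated), per the submitters' processing notes. Scan dates and the probe set definition were not found in the labels. Array medians lay between 5.85 and 5.87 and values between 2.51 and 14.56. The number of arrays limits the precision. Names came from GEO's platform annotation: of 45101 probe sets, 34958 had 1 gene symbol and 932 had several. KO was compared with WT over 18194 genes by a two-sided limma test (version 3.58.1, R 4.3.3; lmFit followed by eBayes) without covariates or filters. P-values were adjusted by Benjamini-Hochberg across the whole table, and 0.05 was the threshold. The fit was tested on simulated data. The members and lists were chosen with earlier results of these data known. All members are named; of each further list, up to 4 genes of smallest p and up to 3 of highest level, and a few others chosen after their values were seen (H2-D1, H2-Aa, H2-Eb1, Lgmn, Rfx5, Mir205hg, Krt15 and the brighter leukocyte and dendritic cell markers). The alternatives were 2 renormalizations, leaving out dim genes, averaging probe sets, a replicate block, other eBayes settings, other limits and leaving out each array.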

Additional observations from a re-analysis of the deposited data

How the results depend on the processing

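No member passed an adjusted p of 0.05, or of 0.10, under any alternative run, and the lowest adjusted p of any member was 0.383 (Ddx58, Mx1 and Ifit1 without KO 2). Over all genes 2 passed, against 4 with median centring, 0 with the mean of probe sets (375 at an unadjusted p under 0.05), 0 with the replicate block (879) and 0 without any 1 array (1044 to 2043). Unadjusted p-values under 0.05 numbered 342 of 18194 over all genes and 200 of 11831 without dim genes. Members at an unadjusted p under 0.05 numbered 0, against 1 with quantile normalization again and 1 with median centring (Usp18 in both; 1.62% and 1.27% of all genes), 4 with the replicate block (Usp18, Ifngr1, Ifi35 and Ifit3; 4.83% of all genes) and 1 to 4 without single arrays (5.74% to 11.2% of all genes). The replicate block changed no adjusted call of a member. The numbers are not stated to pair arrays; deviations of same-numbered arrays correlated at r = 0.56 across all genes and 0.74 across members, from 2 pairs. Members with separated groups numbered 7, against 11 with quantile normalization again (26.8%, against 23.9% of all genes) and 18 to 26 without single arrays (43.9% to 63.4%, against 49.0% to 55.1% of all genes), where fewer arrays overlap less often. With the median gene as the limit 16 members were bright enough, against 28. Of the 41 members 17 kept the sign of their difference, or reached 0, under every alternative, 10 higher and 7 lower in KO. Signs turned for B2m with quantile normalization again (0.002), for Ifnar2 with median centring (-0.0021), and with the mean of probe sets for Irf3 (-0.027), Rsad2 (0.006), Parp14 (-0.002), Gbp2 (-0.033), Tap1 (-0.0098) and Ciita (-0.018). Leaving out single arrays gave differences of -0.16 to 0.19 for Ifnar2, -0.34 to 0.0203 for Ifngr2, -0.25 to 0.31 for Irf2, -0.13 to 0.45 for Trim25, -0.037 to 0.14 for Ifit2, -0.0703 to 0.47 for Rtp4, -0.034 to 0.13 for Parp14, -0.018 to 0.063 for Gbp3, -0.13 to 0.51 for Cxcl10, -0.17 to 0.45 for Tapbp, -0.21 to 0.041 for Jak1, -0.14 to 0.094 for Stat2, -0.044 to 0.13 for Irf3, -0.25 to 0.069 for Ifih1, -0.20 to 0.11 for Oasl2, -0.081 to 0.19 for Bst2, -0.12 to 0.35 for Tap2, -0.27 to 0.26 for B2m, -0.095 to 0.36 for Ciita, -0.34 to 0.34 for Nlrc5 and -0.16 to 0.14 for Irf1. The cause was not tested. The median difference of the members, 0.045, ran from -0.018 (without KO 1) to 0.069 (without KO 2) when single arrays were left out, and from 0.0060 to 0.053 under the other alternatives. Without detection calls the signal of dim probe sets cannot be told from background, so the size of their differences in RNA is not known.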
